A study of Mus musculus with 12 samples.

Results

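The 42 genes described here are known targets or regulators of p53 that act outside the death receptors, from the feedback ligase Mdm2 to the adenylate kinase Ak1. They were found by gene name in both deposited tables. Each name matched 1 row, so that 42 of 55421 genes were taken. They were arranged by role into 8 genes of feedback and control of p53, 8 of arrest and growth restraint, 5 of repair and nucleotide supply, 7 of cell death outside the receptors, 7 of metabolism and redox balance, and 7 of signalling, secretion and other functions.

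RNA was sequenced from B16F10, a pigmented mouse melanoma line grown in culture. A vector control (VC) was set against Bub1KO cells, in which CRISPR-Cas9 had been aimed at Bub1, the mitotic checkpoint kinase gene. Each genotype was either left without treatment or irradiated with 8 Gy, which gives 4 groups of 3 libraries: untreated VC, untreated Bub1KO, irradiated VC and irradiated Bub1KO. The labels give neither the time from irradiation to harvest, nor the number of Bub1KO clones, nor whether replicate libraries stem from separate cultures. The p-values therefore measure only the spread between these libraries, which may be technical.

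p53 is a transcription factor that is held at a low level by the ubiquitin ligase Mdm2 and is stabilised when kinases such as ATM sense DNA breaks. It then switches on genes that halt the cell cycle, repair DNA, reshape metabolism or lead to death. Several of its targets, Mdm2 among them, act back on p53 and limit the response. Changes in p53 activity after radiation come largely from the protein, which RNA sequencing does not measure, so the RNA of the targets is the usual transcript readout.

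Values are the authors' normalized counts, that is, reads per gene divided by 1 size factor per library. Libraries held 19380726 to 33087366 reads in genes. A gene was tested if it had at least 10 normalized counts in at least 3 of the 12 libraries, which 14721 genes and 40 of the 42 p53 targets did. Differences are in log2(normalized count + 1), tested with limma, and "called" means a Benjamini-Hochberg adjusted p under 0.05 over all 14721 genes. Bub1 itself, which checks the labels, averaged 2932 normalized counts in VC and 1662 in Bub1KO without treatment, and 1484 and 998 after irradiation, so its RNA was lower but still present in Bub1KO. All 7 melanocyte markers were abundant in every group, while Ptprc, Cd3e, Krt5, Krt14 and Epcam never passed 3.10 normalized counts. Summed melanocyte markers spanned 386911 to 404327 in VC and 542890 to 552089 in Bub1KO without treatment, and 430616 to 445913 and 555547 to 578932 after irradiation; their part in the genotype differences was not tested. Among 5 leukocyte markers 1 was tested, Cd68, and their sum spanned 23.9 to 28.2 in untreated VC and 102 to 132 after irradiation, and 19.3 to 21.1 and 213 to 224 in Bub1KO. The part of Cd68, at most 224 normalized counts, in the results below was not tested. Of 7 fibroblast and endothelial markers 2 were tested, Col1a1 and Pdgfra, 1 lower and 1 higher after irradiation in each genotype and neither called between genotypes; the list's sum spanned 107 to 157 (VC) and 85.6 to 118 (Bub1KO) without treatment, and 73.2 to 82.6 and 69.3 to 80.9 after it. Of 4 keratinocyte and epithelial markers 1 was tested, Cdh1, which reached 133; it was called higher after irradiation in VC (0.43) and Bub1KO (0.52) and higher in irradiated Bub1KO than in irradiated VC (0.51). That list's sum spanned 57.2 to 78.7 (VC) and 74.8 to 96.6 (Bub1KO) without treatment, and 74.0 to 101.0 and 120 to 133 after it. The part of these markers was not tested either.

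Most of these genes rose after irradiation in both genotypes. In VC, 33 of the 40 tested genes rose and 0 fell, where 27.6% of all tested genes rose and 25.8% fell. In Bub1KO, 29 rose and 1, Trp53 itself, fell, against 25.4% and 23.9% of all tested genes. The median log2 change was 0.86 in VC and 0.81 in Bub1KO, beside 0.02 and 0.03 over all tested genes. All 29 genes that rose in Bub1KO also rose in VC. The 33 and the 29 include Epha2, which passed the filter only through the irradiated libraries, and this favours a rise. Other measures of the libraries moved with irradiation. Mitochondrial genes held 2.31% to 2.93% of reads in the 6 untreated libraries and 3.53% to 3.93% in the 6 irradiated ones, and genes with a read numbered 20153 to 21408 and 21960 to 23570. The median of GC-rich minus that of GC-poor genes (log2, against the mean of all libraries) ran from -0.36 to -0.13 in untreated VC and from 0.16 to 0.34 in irradiated VC, and from -0.70 to 0.07 and from 0.08 to 0.28 in Bub1KO. With the GC trend removed 34 of the 40 rose and 1 fell in VC, and 33 rose and 2 fell in Bub1KO; the part of the mitochondrial share and of the number of detected genes was not tested. Of the calls in limma, the 4 made only in VC were Cdip1, Trp53i13, Apaf1 and Gpx1, and 6 were called in neither genotype: Ppm1d, Fbxw7, Tigar, Rap2b, Rps27l and Bloc1s2. Across the 40 genes the changes in the 2 genotypes, which share no library, had a Pearson r of 0.95 and a Spearman rho of 0.93; over all 14721 genes the values were 0.85 and 0.82, and genes within a library are not independent.

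**Figure D1:**
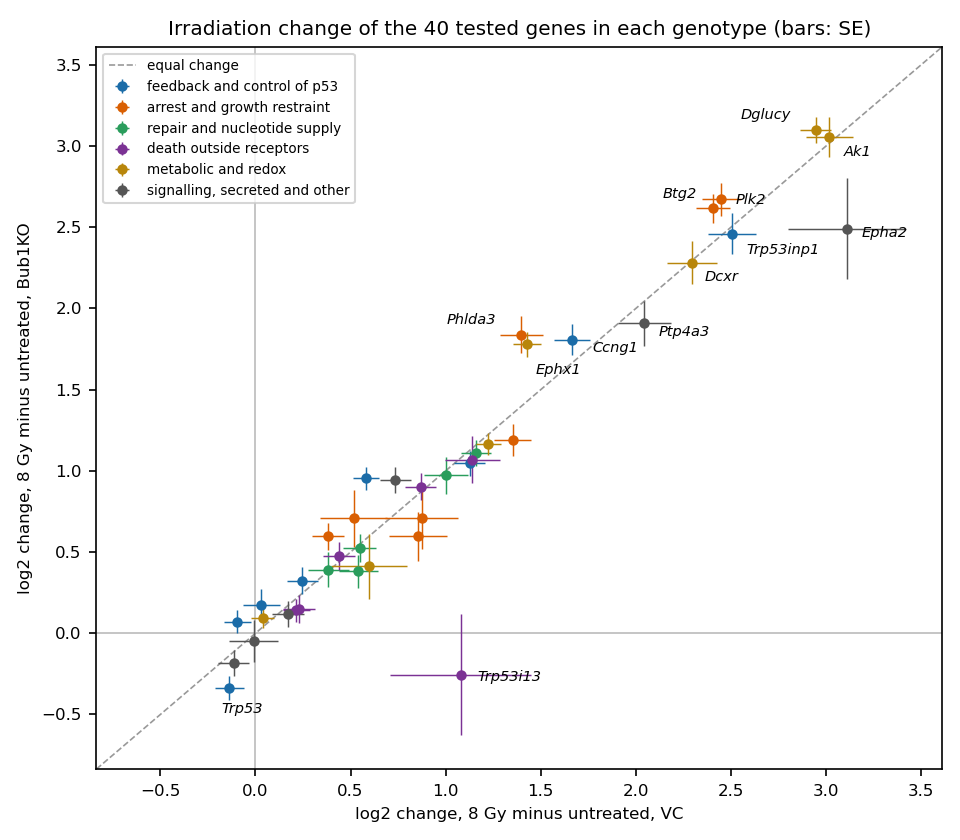
Log2 change from untreated to 8 Gy in VC (x axis) and Bub1KO (y axis) for the 40 tested p53 targets, 1 point per gene, coloured by role, with standard errors as bars and a dashed line of equal change. Most points lie along the line, from Trp53 at the bottom to Ak1 and Dglucy toward the top, with Trp53i13 (1.08 in VC, -0.25 in Bub1KO) apart.

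Calls of a lower level in Bub1KO were more frequent among these genes than over all tested genes. Calls of a higher level were not. After irradiation 15 of the 40 were lower and 5 were higher in Bub1KO than in VC, where 16.4% of all tested genes were lower and 14.3% higher. Without irradiation 5 were lower and 0 higher, beside 1.71% and 2.31% of all tested genes. The median differences were small, -0.13 after irradiation and -0.14 without it, against -0.01 over all tested genes in both comparisons. The 5 genes lower without treatment were Ccng1, Zmat3, Btg2, Aen and Sulf2, and all 5 were lower after irradiation too. Of the 33 genes that rose in irradiated VC, 14 were lower, 5 were higher and 14 were not called in irradiated Bub1KO. The irradiated VC libraries enter both comparisons, so this choice of genes by itself favours lower calls. The same split was not counted over all genes.

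The size of the irradiation change itself was compared between genotypes by the interaction, the Bub1KO change minus the VC change. None of the 40 genes was called in limma, where 0.55% of all tested genes were. Unadjusted p was under 0.05 for 4 of the 40 and for 1784 of the 14721 genes. edgeR called 0 of the 40 and DESeq2 called 1, Zmat3. The 4 were Zmat3, with a difference of 0.37 (95% confidence interval 0.17 to 0.58, limma adjusted p = 0.122), Ephx1, with 0.35 (0.12 to 0.58, limma adjusted p = 0.181), Phlda3, with 0.44 (0.10 to 0.78, limma adjusted p = 0.265), and Trp53i13, with -1.33 (-2.46 to -0.21, limma adjusted p = 0.317). Without replicate 1 of untreated Bub1KO, 5 of the 40 were called, beside 1447 of all 14721 genes. The 5 were Zmat3, with a larger change in Bub1KO, and Trp53, Gtse1, Trp53i13 and Gpx1, with a lower one.

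That library stood apart by base composition. Its log2 values minus those of the other 2 untreated Bub1KO libraries had a Pearson r of -0.72 with the GC content of each gene's longest transcript over the 40 genes, and -0.55 over 14707 genes. GC-rich genes such as Trp53i13, Gpx1 and Gtse1 were low in it, and the values of these 3 are given below with and without it. Its absence moved other changes in Bub1KO less, from 1.91 to 1.70 for Ptp4a3, from 1.84 to 1.71 for Phlda3, from 1.07 to 0.88 for Pidd1, from 0.71 to 0.50 for Plk3 and from -0.34 to -0.42 for Trp53, each still called. Its part in the genotype differences was tested only by leaving it out and by removing the GC trend.

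**Figure D2:**
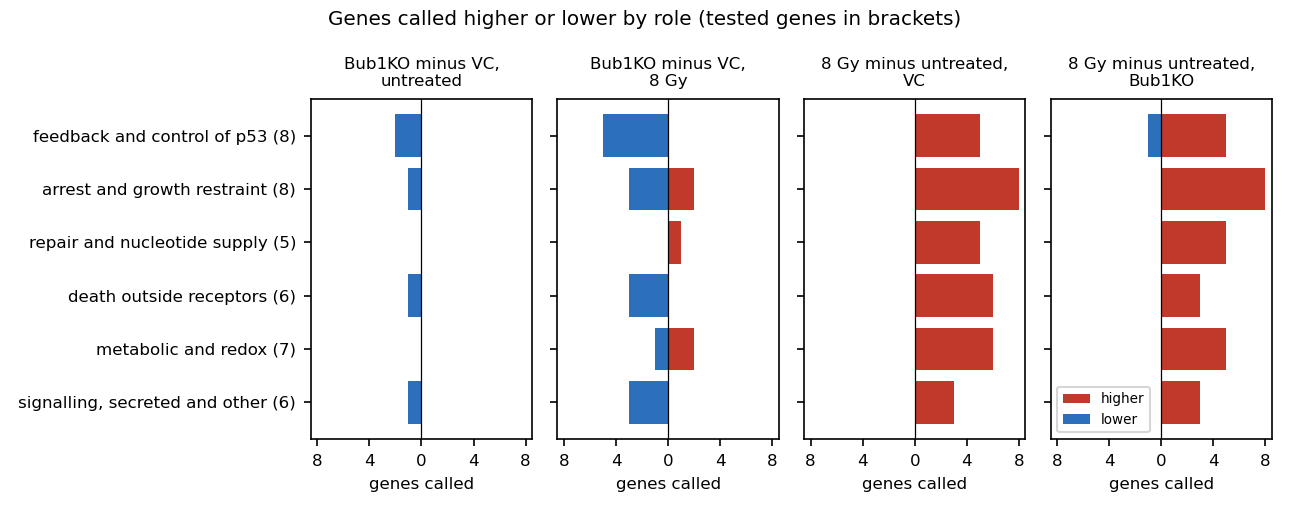
Number of genes called higher (red, right) or lower (blue, left) by limma in each role, for the 2 genotype comparisons and the 2 irradiation comparisons; the number of tested genes stands in brackets. All 8 genes listed under arrest and all 5 repair genes rose after 8 Gy in both genotypes, where 27.6% (VC) and 25.4% (Bub1KO) of all tested genes rose. The genotype comparison after 8 Gy holds calls in both directions.

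Short stretches of promoters show where some of these genes carry a p53 half-site, which is only a part of the full site, and which of those genes rose. Binding of p53 to these stretches was not tested. RefSeq windows of GRCm38.p6, from 250 bases before to 50 after each start site, were found for 35 of the 42 genes. The p53 half-site, a consensus of 10 bases that reads alike on both strands, stood in the window of 13 of the 35 (37.1%), beside 9.55% of 27025 genes. The genes were chosen as p53 targets, so this share is a description and no independent support. Of the 13 genes with a half-site, 9 rose after irradiation in VC, and of the 21 tested genes without one, 18 rose. Many p53 sites lie in introns or further upstream, outside these windows. The first 4 sequences belong to genes that rose in both genotypes and the last 3 to genes that did not rise in either, with the half-site in capitals and each read 5′ to 3′ on the gene's strand:
Mdm2: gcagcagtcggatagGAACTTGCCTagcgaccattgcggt
Ccng1: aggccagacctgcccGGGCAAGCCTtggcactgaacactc
Sesn1: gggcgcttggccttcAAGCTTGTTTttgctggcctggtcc
Polk: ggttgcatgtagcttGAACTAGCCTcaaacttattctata
Ppm1d: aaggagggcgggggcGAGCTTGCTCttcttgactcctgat
Trp53: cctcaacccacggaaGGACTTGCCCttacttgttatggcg
Rps27l: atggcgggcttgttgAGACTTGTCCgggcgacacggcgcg

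In GRCm38.p6 these stretches are chr10:117710920-117710959 (minus strand) for Mdm2, chr11:40755447-40755486 (minus) for Ccng1, chr10:41887251-41887290 (plus) for Sesn1 and chr13:96519394-96519433 (minus) for Polk. The others are chr11:85311107-85311146 (plus) for Ppm1d, chr11:69580269-69580308 (plus) for Trp53 and chr9:66946291-66946330 (plus) for Rps27l. All end before a RefSeq start site. Those of Mdm2, Ccng1, Ppm1d and Trp53 lie upstream of the annotated gene. Those of Sesn1, Polk and Rps27l lie within the bounds of the annotated gene, ahead of a start site inside it. The full p53 site is a pair of half-sites with a spacer of 0 or 1 base. With no mismatch it was in the window of 0 of the 35 genes and of 3 of all 27025. Allowing up to 2 mismatches outside the core, it was in Gtse1 and Rps27l (5.71% of the 35), beside 0.377% of all genes. The near-full sites, each with 1 mismatch and with the core letters in capitals, were 2 overlapping ones in Gtse1, the second with a spacer of 1 base, and 1 in Rps27l:
Gtse1, first: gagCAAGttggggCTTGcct
Gtse1, second: gggCTTGcctctgaCTTGcct
Rps27l: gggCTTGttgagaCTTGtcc

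The first Gtse1 stretch, chr15:85859945-85859964 (plus strand), lies across the start site, the second is chr15:85859955-85859975 (plus strand), and that of Rps27l, chr9:66946296-66946315 (plus strand), lies 117 to 98 bases before it. Gtse1 rose in both genotypes and Rps27l was not called in either.

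Among the genes that control p53, Mdm2 and several other targets rose with radiation, and Trp53 itself did not. Of the 8, 5 rose in each genotype and 1 fell in Bub1KO. Among all tested genes 27.6% rose in VC, and 25.4% rose and 23.9% fell in Bub1KO. After irradiation 5 of the 8 were lower in Bub1KO than in VC and 0 higher, beside 16.4% and 14.3% of all tested genes. Trp53, the p53 gene (chr11:69580359-69591873), had 3591, 3467 and 3654 normalized counts (untreated VC), 2790, 3229 and 3414 (untreated Bub1KO), 3285, 3286 and 3164 (VC at 8 Gy) and 2376, 2485 and 2589 (Bub1KO at 8 Gy). Every irradiated Bub1KO library was below every other library. Trp53 RNA fell by 0.34 in Bub1KO (SE 0.0759, limma adjusted p = 0.00226), and its change in VC was -0.14 (limma adjusted p = 0.142). After irradiation it was 0.39 lower in Bub1KO on the log2 scale (-0.39, SE 0.0565, limma adjusted p = 0.000292); without it the difference was -0.19 (limma adjusted p = 0.336).

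Mdm2, the ligase that marks p53 for degradation (chr10:117688875-117710758), had 2525, 2666 and 2485 normalized counts (untreated VC), 2483, 2030 and 2086 (untreated Bub1KO), 5402, 5621 and 5719 (VC at 8 Gy) and 4392, 4403 and 4788 (Bub1KO at 8 Gy). The rise was 2.18-fold in VC (limma adjusted p = 1.23e-07) and 2.06-fold in Bub1KO (limma adjusted p = 2.15e-07). The irradiated groups did not overlap, and Bub1KO was at 81.1% of VC (log2 difference -0.30, SE 0.0564, limma adjusted p = 0.00151). Mdm4, the relative of Mdm2 that binds and blocks p53, moved less. It had 2040, 2177 and 2010 normalized counts (untreated VC), 2357, 2126 and 1863 (untreated Bub1KO), 2555, 2432 and 2398 (VC at 8 Gy) and 2597, 2567 and 2743 (Bub1KO at 8 Gy). Its log2 change was 0.25 in VC (limma adjusted p = 0.0212) and 0.32 in Bub1KO (limma adjusted p = 0.00488). The VC call ended when 1 of 3 libraries (untreated VC replicate 1 or 3, or irradiated VC replicate 1) was left out, with a limma adjusted p of up to 0.0792.

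Ppm1d, the Wip1 phosphatase that shuts off ATM and p53 signalling, was called in none of the comparisons. Its values were 689, 706 and 718 normalized counts (untreated VC), 602, 582 and 584 (untreated Bub1KO), 668, 637 and 674 (VC at 8 Gy) and 595, 624 and 641 (Bub1KO at 8 Gy). The untreated groups did not overlap, with a difference of -0.26 (limma adjusted p = 0.17), and it was called in some alternatives, among them edgeR, DESeq2 and the fit on all 12 libraries. Fbxw7, a ubiquitin ligase subunit, ranged from 1075 to 1388 normalized counts over the 12 libraries and was also not called.

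Ccng1, Trp53inp1 and Zmat3 were induced and stood lower in Bub1KO. Ccng1 encodes cyclin G1, which brings a phosphatase to Mdm2. It had 5651, 6501 and 5121 normalized counts (untreated VC), 4357, 3720 and 3577 (untreated Bub1KO), 16859, 18548 and 19132 (VC at 8 Gy) and 13377, 12976 and 14336 (Bub1KO at 8 Gy). It rose 3.17-fold in VC and 3.50-fold in Bub1KO, and its level in Bub1KO was 67.5% of VC without treatment and 74.6% after irradiation (limma adjusted p = 0.0297 and 0.000325). Neither pair of genotype groups overlapped. The untreated call ended in 7 of 16 alternatives, among them the replicate block, no filter and leaving out any 1 of the untreated VC libraries, with an adjusted p of up to 0.173 in limma.

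Trp53inp1, a stress protein that promotes p53 activity and autophagy, had 1952, 2110 and 1596 normalized counts (untreated VC), 1719, 1521 and 1268 (untreated Bub1KO), 9682, 11196 and 11097 (VC at 8 Gy) and 8666, 7166 and 8906 (Bub1KO at 8 Gy). It rose 5.67-fold in VC and 5.50-fold in Bub1KO. The irradiated difference of -0.37 was called (limma adjusted p = 0.00426) and the overlapping untreated groups were not. The irradiated call was lost in 3 of 16 alternatives, without the filter, in edgeR and with all 12 libraries in the fit (adjusted p up to 0.130 in limma or edgeR). Zmat3, an RNA-binding zinc finger protein, had 3337, 3681 and 3405 normalized counts (untreated VC), 2396, 2313 and 2261 (untreated Bub1KO), 5117, 5470 and 4992 (VC at 8 Gy) and 4243, 4528 and 4733 (Bub1KO at 8 Gy). Its deficit in Bub1KO was -0.58 without treatment (limma adjusted p = 0.00645) and -0.21 after irradiation (limma adjusted p = 0.0197). The change with radiation was 0.58 in VC and 0.95 in Bub1KO, and the later deficit lost its call in 7 of 16 alternative analyses and the untreated one in 1, without untreated VC replicate 2 (limma adjusted p = 0.0505).

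**Figure D3:**
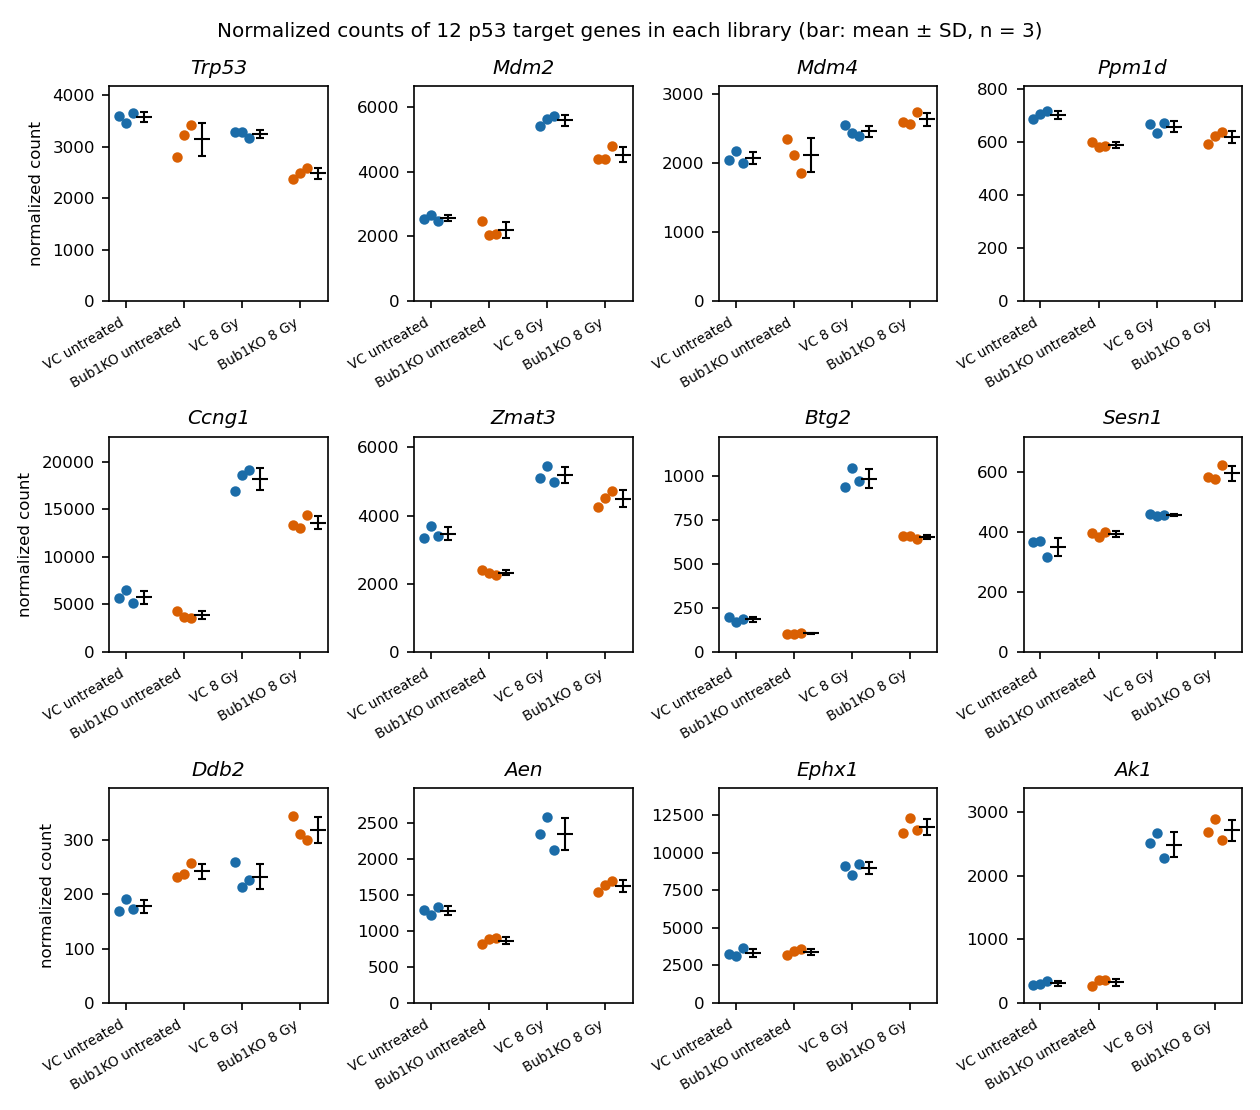
Normalized counts (linear axis from 0) of 12 p53 targets in each of the 12 libraries: VC in blue, Bub1KO in orange, 3 points per group, with the mean and SD of the 3 as a black bar. After 8 Gy Mdm2, Ccng1, Btg2 and Aen are lower in Bub1KO, Sesn1, Ddb2 and Ephx1 are higher, and the Ak1 groups overlap.

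All 8 genes listed under arrest and growth restraint rose in both genotypes, where 27.6% (VC) and 25.4% (Bub1KO) of all tested genes rose. Their median log2 change was 1.11 in VC and 0.95 in Bub1KO, and the mean was 1.28 and 1.37. The change was larger in Bub1KO for 5 of the 8 and none differed by a call. In irradiated Bub1KO 3 of the 8, Btg2, Plk2 and Gtse1, were lower than in VC and 2, Gadd45a and Sesn1, were higher. Among all tested genes 16.4% were lower and 14.3% higher. Btg2, an antiproliferative protein that recruits the CCR4-NOT deadenylase, had 200, 170 and 185 normalized counts (untreated VC), 103, 104 and 111 (untreated Bub1KO), 937, 1043 and 971 (VC at 8 Gy) and 660, 659 and 641 (Bub1KO at 8 Gy). The 4 groups were fully separated. Btg2 rose 5.30-fold in VC and 6.12-fold in Bub1KO, from a level in Bub1KO that was 57.2% of VC without treatment and 66.4% of it after irradiation (limma adjusted p = 0.0124 and 5.59e-05). The untreated call ended in 4 of 16 alternatives, each without 1 library, either any of untreated VC or replicate 2 of untreated Bub1KO.

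Plk2, a polo-like kinase of the stress response, had 319, 288 and 362 normalized counts (untreated VC), 257, 203 and 225 (untreated Bub1KO), 1835, 1704 and 1742 (VC at 8 Gy) and 1404, 1505 and 1455 (Bub1KO at 8 Gy). It rose 5.46-fold and 6.37-fold, and its irradiated difference of -0.28 was called (limma adjusted p = 0.00434), although not in edgeR or with all 12 libraries in the fit. Gtse1, a microtubule protein that can carry p53 out of the nucleus, showed the lowest irradiated ratio of the genes listed under arrest. By that function Gtse1 acts on p53 itself, so its level is no measure of arrest. It had 2687, 2682 and 2412 normalized counts (untreated VC), 1383, 2258 and 2340 (untreated Bub1KO), 4541, 5036 and 4477 (VC at 8 Gy) and 2712, 2979 and 3128 (Bub1KO at 8 Gy). The low untreated value of 1383 is that of the library with the GC shift. The log2 change in Bub1KO was 0.60 with that library and 0.35 without it, beside 0.85 in VC, and the difference between the changes moved from -0.26 to -0.50. Irradiated Bub1KO was at 62.7% of VC (log2 difference -0.67, SE 0.0675, limma adjusted p = 1.59e-05), and this call held in all 16 alternative analyses run for it.

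Sesn1 went the other way. It encodes sestrin 1, which restrains the growth kinase complex mTORC1. Its values were 368, 369 and 316 normalized counts (untreated VC), 395, 383 and 400 (untreated Bub1KO), 461, 453 and 457 (VC at 8 Gy) and 584, 576 and 624 (Bub1KO at 8 Gy). All irradiated Bub1KO libraries lay above all others, with a difference from VC of 0.38 (SE 0.074, limma adjusted p = 0.00204) that was called in all 16 alternatives. Gadd45a, a stress-induced growth arrest gene that shares 19.1% of its exon bases with a gene on the opposite strand, averaged 387 ± 29.5 normalized counts (SD, n = 3) in irradiated VC and 466 ± 13.5 in irradiated Bub1KO. That difference, 0.27 (limma adjusted p = 0.0271), lost its call in 9 of 16 alternatives.

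Phlda3, a protein that competes with the kinase Akt for the membrane, was separated by genotype only before irradiation. It had 1646, 1349 and 1664 normalized counts (untreated VC), 924, 1128 and 1269 (untreated Bub1KO), 4200, 3922 and 4112 (VC at 8 Gy) and 3965, 4215 and 3621 (Bub1KO at 8 Gy). The untreated groups did not overlap and the irradiated ones did, with differences of -0.49 (limma adjusted p = 0.0847) and -0.05 (limma adjusted p = 0.553, 95% confidence interval -0.19 to 0.08). Tob1, a relative of Btg2, scattered more, with 1664, 2011 and 1280 normalized counts (untreated VC), 1182, 1082 and 1027 (untreated Bub1KO), 2019, 2247 and 2761 (VC at 8 Gy) and 2237, 1421 and 1804 (Bub1KO at 8 Gy). It rose in both genotypes (log2 changes 0.52 and 0.71) and was called between genotypes in neither state. The VC call ended without untreated VC replicate 3 or irradiated VC replicate 3. Plk3, the remaining polo-like kinase, rose from 95.4 ± 16.5 to 174 ± 9.63 normalized counts in VC and from 88.2 ± 27.7 to 140.5 ± 7.10 in Bub1KO (SD, n = 3).

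The 5 genes of repair and nucleotide supply rose in both genotypes, with nearly equal medians of 0.55 in VC and 0.52 in Bub1KO. Among all tested genes 27.6% rose in VC and 25.4% in Bub1KO. Between the irradiated genotypes only Ddb2 was called, which is 20% of the 5, beside 30.7% of all tested genes. Ercc5, the XPG endonuclease of nucleotide excision repair, had 981, 1028 and 1000 normalized counts (untreated VC), 1005, 900 and 870 (untreated Bub1KO), 2300, 2162 and 2260 (VC at 8 Gy) and 1818, 2109 and 2060 (Bub1KO at 8 Gy). It rose 2.23-fold in VC and 2.16-fold in Bub1KO, with a difference between the changes of -0.05 (95% confidence interval -0.29 to 0.19).

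Polk, a polymerase that copies past damaged bases, had 478, 604 and 462 normalized counts (untreated VC), 560, 465 and 452 (untreated Bub1KO), 1008, 1033 and 1032 (VC at 8 Gy) and 889, 941 and 1063 (Bub1KO at 8 Gy). The fold changes were 2.00 in VC and 1.96 in Bub1KO, and the genotype groups overlapped in both states. Ddb2 and Xpc recognise ultraviolet lesions. Ddb2 had 169, 192 and 173 normalized counts (untreated VC), 233, 237 and 258 (untreated Bub1KO), 259, 213 and 226 (VC at 8 Gy) and 345, 311 and 299 (Bub1KO at 8 Gy). It was higher in Bub1KO by 0.45 in both states, called after irradiation (limma adjusted p = 0.00525) and not before it (limma adjusted p = 0.0839), and 23.8% of its exon bases overlap Acp2 on the opposite strand. The irradiated call ended when genes were not filtered (limma adjusted p = 0.0618).

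Xpc had 806, 862 and 745 normalized counts (untreated VC), 804, 988 and 902 (untreated Bub1KO), 1132, 1204 and 1191 (VC at 8 Gy) and 1236, 1281 and 1342 (Bub1KO at 8 Gy). It rose by 0.55 and 0.52 on the log2 scale and was not called between genotypes. Rrm2b, the p53-induced subunit of ribonucleotide reductase, had 419, 530 and 431 normalized counts (untreated VC), 463, 450 and 432 (untreated Bub1KO), 607, 723 and 674 (VC at 8 Gy) and 615, 543 and 597 (Bub1KO at 8 Gy). Its genotype groups overlapped in both states.

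Of the death genes outside the receptors, all 6 that were tested rose in VC and 3, Aen, Ei24 and Pidd1, rose in Bub1KO. Among all tested genes 27.6% rose in VC and 25.4% in Bub1KO. The changes in Bub1KO were above 0 for 5 of the 6. With all libraries 0 of the 6 were called in the interaction, which had a median of -0.07. After irradiation 3 were lower in Bub1KO, Aen, Trp53i13 and Apaf1, and 0 higher, beside 16.4% and 14.3% of all tested genes. Aen, an apoptosis-enhancing nuclease, had 1292, 1225 and 1343 normalized counts (untreated VC), 817, 890 and 904 (untreated Bub1KO), 2349, 2585 and 2130 (VC at 8 Gy) and 1542, 1640 and 1703 (Bub1KO at 8 Gy). Its level in Bub1KO was 67.6% of VC without treatment and 69.1% after irradiation (limma adjusted p = 0.0112 and 0.000206), while the induction was 1.82-fold in VC and 1.87-fold in Bub1KO. The untreated call ended without any 1 of the 3 untreated VC libraries. The difference between the inductions was 0.04 (95% confidence interval -0.22 to 0.29).

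Apaf1, the scaffold of the caspase-activating apoptosome, changed little. It had 1649, 1913 and 1576 normalized counts (untreated VC), 1539, 1452 and 1446 (untreated Bub1KO), 1950, 2084 and 1974 (VC at 8 Gy) and 1549, 1575 and 1812 (Bub1KO at 8 Gy). Its log2 change of 0.23 in VC lost its call in 7 of 16 alternatives, and its irradiated difference of -0.29 (limma adjusted p = 0.00762) lost it in 1, without the filter. Pidd1, which assembles the complex that activates caspase-2, had 471, 379 and 379 normalized counts (untreated VC), 284, 425 and 416 (untreated Bub1KO), 951, 953 and 801 (VC at 8 Gy) and 745, 833 and 748 (Bub1KO at 8 Gy). It rose 2.20-fold and 2.10-fold.

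Trp53i13, a p53-induced membrane protein gene, is low and shares 15.2% of its exon bases with Abhd15 on the opposite strand. It had 37.3, 29.7 and 20.2 normalized counts (untreated VC), 18.3, 57.6 and 48.4 (untreated Bub1KO), 53.3, 78.1 and 53.6 (VC at 8 Gy) and 32.0, 40.4 and 23.1 (Bub1KO at 8 Gy). The value of 18.3 belongs to the library with the GC shift. With it the log2 change in Bub1KO was -0.25 and not called, and without it Trp53i13 fell by 0.75 there (limma adjusted p = 0.0384), beside a rise of 1.08 in VC. The difference between the changes moved from -1.33 to -1.83 (limma adjusted p = 0.00669). The irradiated difference of -0.94 (limma adjusted p = 0.00838) was lost in 4 of 16 alternatives, among them edgeR and DESeq2, and its rise in VC was lost in 4 too, among them removal of the GC trend.

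Cdip1, a mediator of p53-dependent death, had 1904, 1877 and 2041 normalized counts (untreated VC), 2278, 2079 and 2143 (untreated Bub1KO), 2319, 2160 and 2280 (VC at 8 Gy) and 2261, 2516 and 2392 (Bub1KO at 8 Gy). Its log2 change was 0.22 in VC (limma adjusted p = 0.0175) and 0.14 in Bub1KO (limma adjusted p = 0.107), with a difference of -0.07 (95% confidence interval -0.29 to 0.14). The VC call was lost without any 1 of 4 VC libraries: untreated replicate 1 or 2, or irradiated replicate 1 or 3. Ei24, a protein of the endoplasmic reticulum, rose from 5248 ± 272 to 7103 ± 265 normalized counts in VC and from 4818 ± 589 to 6671 ± 337 in Bub1KO (SD, n = 3). Perp, a p53 target at cell junctions, stayed between 1.26 and 7.26 normalized counts and was not tested.

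The metabolic genes Ak1 and Dglucy were among the most strongly induced. Of the 7 metabolic genes, 6 rose in VC and 5 in Bub1KO, with medians of 1.43 and 1.78. Among all tested genes 27.6% rose in VC and 25.4% in Bub1KO. Ak1, adenylate kinase 1, which balances ATP, ADP and AMP (chr2:32621758-32635058), had 277, 299 and 344 normalized counts (untreated VC), 264, 359 and 360 (untreated Bub1KO), 2509, 2668 and 2279 (VC at 8 Gy) and 2691, 2882 and 2554 (Bub1KO at 8 Gy). The rise was 8.10-fold in VC (limma adjusted p = 8.1e-10) and 8.31-fold in Bub1KO (limma adjusted p = 6.86e-10), and the genotype groups overlapped in both states. Dglucy, the mitochondrial D-glutamate cyclase, was induced as much. It had 153, 137 and 141 normalized counts (untreated VC), 145, 151 and 153 (untreated Bub1KO), 1078, 1137 and 1113 (VC at 8 Gy) and 1231, 1312 and 1331 (Bub1KO at 8 Gy). It rose 7.69-fold and 8.57-fold, and the irradiated difference of 0.22 (limma adjusted p = 0.0191) lost its call in 5 of 16 alternatives.

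Ephx1, the microsomal epoxide hydrolase (chr1:180976210-181020904), was higher in Bub1KO after irradiation. It had 3230, 3132 and 3659 normalized counts (untreated VC), 3198, 3478 and 3562 (untreated Bub1KO), 9128, 8516 and 9262 (VC at 8 Gy) and 11308, 12307 and 11498 (Bub1KO at 8 Gy). The fold rise was 2.69 in VC and 3.43 in Bub1KO. The irradiated difference was 0.38 (SE 0.0572, limma adjusted p = 0.000327) and was called in all 16 alternatives, beside an untreated difference of 0.03 (95% confidence interval -0.18 to 0.25).

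Gpx1, glutathione peroxidase 1, had 2008, 1569 and 1609 normalized counts (untreated VC), 916, 1821 and 1808 (untreated Bub1KO), 2513, 2724 and 2551 (VC at 8 Gy) and 1875, 2071 and 1827 (Bub1KO at 8 Gy). Its value of 916 is again that of the library with the GC shift. Its log2 change in Bub1KO was 0.41 with that library and 0.08 without it, beside 0.59 in VC. The VC call ended in 3 of 16 alternatives: without untreated VC replicate 2 or 3, or irradiated VC replicate 2 (limma adjusted p up to 0.0762). The difference between the changes was -0.18 and not called, and without the library with the GC shift it was -0.51 (limma adjusted p = 0.0157). Gpx1 was lower in irradiated Bub1KO by 0.43 on the log2 scale (-0.43, limma adjusted p = 0.000325). The call was lost in edgeR, DESeq2 and the fit on all 12 libraries, while the difference stayed between -0.49 and -0.36 in all 16 alternatives. Abhd4, a lipase of N-acyl phospholipids, had 1496, 1520 and 1491 normalized counts (untreated VC), 1527, 1626 and 1626 (untreated Bub1KO), 3493, 3503 and 3532 (VC at 8 Gy) and 3304, 3788 and 3646 (Bub1KO at 8 Gy). Its rises of 2.34-fold and 2.24-fold differed by -0.06 (95% confidence interval -0.26 to 0.14). Dcxr, a dicarbonyl and xylulose reductase, rose 4.90-fold and 4.86-fold. Tigar, which lowers fructose 2,6-bisphosphate and so slows glycolysis, ranged from 1733 to 2012 normalized counts over the 12 libraries and was called in no comparison.

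Of the 6 tested signalling, secreted and other genes, Epha2, Sulf2 and Ptp4a3 rose in both genotypes and were lower in irradiated Bub1KO. The other 3 were called in no comparison. Among all tested genes 27.6% rose in VC, 25.4% rose in Bub1KO and 16.4% were lower in irradiated Bub1KO. Epha2, an ephrin receptor tyrosine kinase, had the largest irradiated genotype difference of the 40 and the lowest level of any of them before treatment. It had 5.80, 7.74 and 5.04 normalized counts (untreated VC), 3.05, 2.47 and 1.05 (untreated Bub1KO), 62.6, 65.4 and 53.6 (VC at 8 Gy) and 13.4, 20.2 and 15.8 (Bub1KO at 8 Gy). Irradiated Bub1KO was at 27.2% of VC (log2 difference -1.83, SE 0.219, limma adjusted p = 6.47e-05). Epha2 passed the filter only through the irradiated libraries, so its rise was favoured by the filter.

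Sulf2, an enzyme that trims sulfate from heparan chains outside the cell, had 3955, 3964 and 4079 normalized counts (untreated VC), 2383, 2706 and 2884 (untreated Bub1KO), 6634, 7036 and 6326 (VC at 8 Gy) and 4686, 5260 and 5372 (Bub1KO at 8 Gy). It was lower in Bub1KO in both states, at 66.5% and 76.6% of VC (limma adjusted p = 0.00946 and 0.000713). The untreated call ended without the filter and without any 1 of the 3 untreated VC libraries. Ptp4a3, the phosphatase PRL-3, had 1322, 1185 and 1367 normalized counts (untreated VC), 809, 1189 and 1290 (untreated Bub1KO), 5124, 5907 and 4969 (VC at 8 Gy) and 4142, 4219 and 3751 (Bub1KO at 8 Gy). It rose 4.12-fold in VC and 3.75-fold in Bub1KO, and its irradiated difference of -0.40 (limma adjusted p = 0.00116) was lost in 3 alternatives, edgeR among them.

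Rap2b, a small GTPase gene with 58.3% of its exon bases shared with genes on the opposite strand, ranged from 4709 to 6199 normalized counts. Rps27l, a ribosomal protein with a near relative, Rps27, ranged from 7153 to 9246, and Bloc1s2, a subunit of lysosome-related organelle complexes, from 957 to 1449. Gdf15, a secreted stress cytokine that p53 induces in many cells, stayed between 0 and 7.26 normalized counts and was not tested. Its mean was 1.41 in untreated VC, 0.27 in untreated Bub1KO, 4.08 in irradiated VC and 4.14 in irradiated Bub1KO. At values this low the filter kept it out of the main test. Analyses without that filter included Gdf15, and their result for it is not given here.

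**Figure D4:**
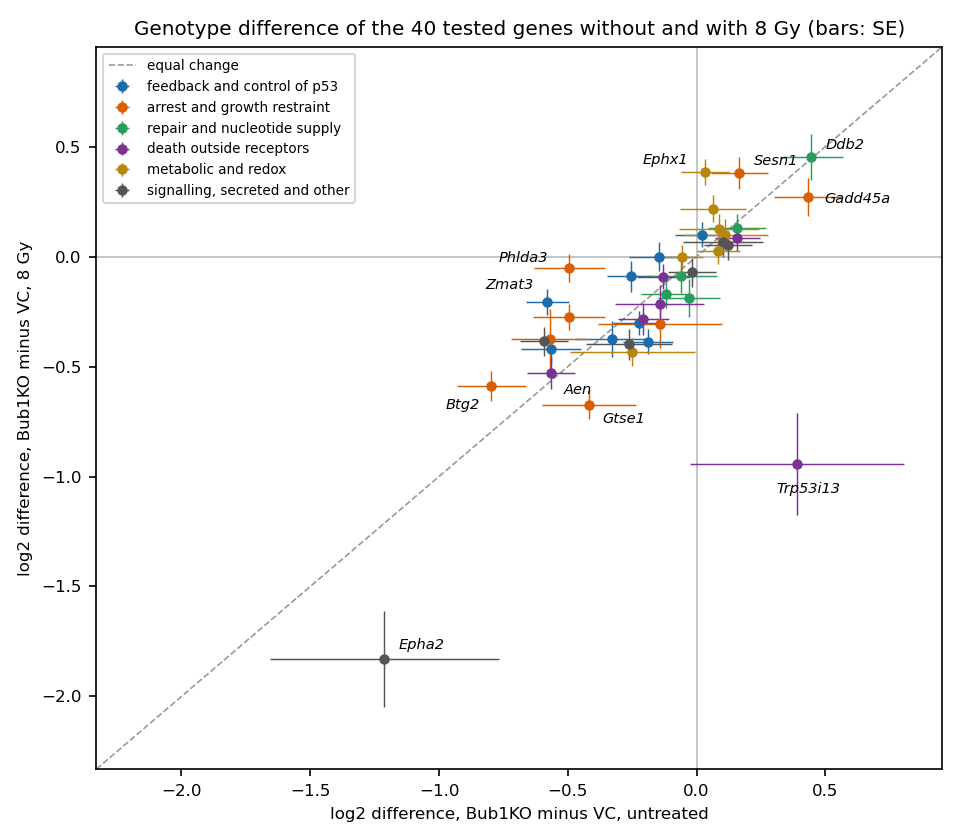
Log2 difference between Bub1KO and VC without treatment (x axis) and after 8 Gy (y axis) for the 40 tested p53 targets, 1 point per gene, coloured by role, with standard errors as bars and a dashed line of equal difference. Btg2, Aen, Gtse1 and Epha2 lie below 0 on both axes, Ddb2, Gadd45a and Sesn1 above 0 on both, and Ephx1 is near 0 without treatment (0.03) and at 0.38 after it.

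The untreated genotype comparison was the least settled. The 5 calls became 12 with all 12 libraries in the fit, where 5.38% of all genes were lower and 6.64% higher; these 12 were the 5 with Epha2, Plk2, Tob1, Ppm1d and Phlda3 lower and Ddb2 and Gadd45a higher. Leaving out 1 library at a time gave 0 to 15 calls, the lowest without untreated VC replicate 2 and the highest without untreated Bub1KO replicate 1. In the authors' deposited table, where adjusted p under 0.05 was met by 6.95% of genes higher and 6.12% lower in untreated Bub1KO, 2 of the 42 were higher and 9 lower. For the irradiated pair the authors' deposited table held 4 higher and 13 lower, with 8.95% and 9.15% of all genes. Across the 40 genes the genotype differences without and after irradiation, which share no library, had a Pearson r of 0.71 and a Spearman rho of 0.75, beside 0.53 and 0.45 over all genes.

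On a scale of normalized counts per kilobase of exon, which allows genes to be compared, the levels spanned several orders of magnitude. In untreated VC Rps27l was highest, at 9531 ± 726 (SD, n = 3), followed by Ephx1 at 1713 ± 144 and Ccng1 at 1639 ± 198, which did not differ beyond their spread. Trp53 stood at 883 ± 23.5 and Mdm2 at 503 ± 18.8. The lowest tested genes were Trp53i13 at 13.5 ± 3.98 and Epha2 at 1.33 ± 0.298. After irradiation Ccng1 led Ephx1 in VC, 5176 ± 336 against 4599 ± 204, and in Bub1KO Ephx1 led Ccng1, 6002 ± 272 against 3862 ± 199.

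Other p53 targets, 18 genes of which 17 were tested, also rose. In VC 12 rose and 1 fell, and in Bub1KO 13 rose and 0 fell, with median log2 changes of 1.16 and 1.03. Over all tested genes 27.6% rose and 25.8% fell in VC, and 25.4% and 23.9% in Bub1KO. Between genotypes 4 were higher and 0 lower in untreated Bub1KO, beside 2.31% and 1.71% of all tested genes. After irradiation 3 were higher and 2 lower, near the 14.3% and 16.4% of all tested genes. Cdkn1a, the p21 inhibitor of cyclin-dependent kinases, averaged 10501 ± 907 normalized counts in untreated VC, 8274 ± 998 in untreated Bub1KO, 30718 ± 897 in irradiated VC and 29893 ± 1377 in irradiated Bub1KO (SD, n = 3). With all libraries it was not called between genotypes in either state. The death-linked Eda2r was higher in Bub1KO in both states, by 1.98 and 1.33, and Bbc3, which encodes Puma, was lower after irradiation, by 0.84 on the log2 scale (-0.84, limma adjusted p = 0.00506). Bax had a log2 change of 0.45 in VC (limma adjusted p = 0.116) and rose by 0.89 in Bub1KO, or by 0.49 without untreated Bub1KO replicate 1 (limma adjusted p = 8e-05). Sesn2 was the 1 gene of this list called in the interaction, at -1.27 (limma adjusted p = 0.00549), with changes of 1.83 in VC and 0.57 in Bub1KO. Before irradiation it was already higher in Bub1KO, by 1.10 (limma adjusted p = 0.00692). After irradiation the genotype difference was -0.17 and not called (limma adjusted p = 0.0703). Without that library Bbc3 (-2.11, limma adjusted p = 0.000708) and Cdkn1a (0.40, limma adjusted p = 0.0187) were called in the interaction too, and in untreated Bub1KO Cdkn1a was called lower (-0.44) and Bbc3 higher (1.27).

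Regulators and kinases of p53 were 23 genes, of which 20 were tested. With radiation 3 rose and 9 fell in VC, and 2 rose and 9 fell in Bub1KO. Over all tested genes 27.6% rose and 25.8% fell in VC, and 25.4% and 23.9% in Bub1KO. Between genotypes 0 were called without treatment, beside 2.31% higher and 1.71% lower over all tested genes. After irradiation 2 were higher and 4 lower, near the 14.3% and 16.4% of all tested genes. A list of 17 cell cycle genes was chosen as known to be lowered by p21 through the DREAM complex. All 17 fell in both genotypes, with medians of -0.84 in VC and -1.08 in Bub1KO. After irradiation 10 of them were lower in Bub1KO and 0 higher, beside 16.4% and 14.3% of all tested genes. The part of p21 and DREAM in these changes was not tested.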

How the data were processed

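The authors deposited 2 tables, 1 for each treatment state, of 55421 genes. Per the submitters' processing notes, the tools were STAR, HTSeq, SAMtools, cutadapt and Trim Galore and the build GRCm38.p6 (mm10). Their versions, order and strand setting are not stated there, so genes overlapping on opposite strands are uncertain. The deposited sample values are a signal at or above 0: read counts divided by a size factor per library (0.775 to 1.41), per the file headers and values; whole reads were recovered for 100.0% of values (tolerance 0.01). The deposited tables also hold the authors' log2 fold changes with standard errors, test scores and p-values, of which only adjusted p-values and directions were used.

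Both tables share 1 normalization. Limma-trend (limma 3.58.1, R 4.3.3) was run on log2(value + 1), which understates changes of low genes. Genotypes were compared on their own 6 libraries; irradiation and interaction used all 12. Alternatives were pseudocounts 0.5 and 5, no filter, TMM factors, edgeR 4.0.16 and DESeq2 1.42.0 on recovered reads, a replicate block, GC trend removal, other libraries in the fit, and leaving out each library. The script was tested on simulated data. Gene models came from GENCODE M21; 55240 identifiers matched. No genome sequence was used, so the wider motif search around start sites was not run.

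Members and lists were chosen with earlier results of these data known. Values in every library are given for Trp53, Mdm2, Mdm4, Ppm1d and, per comparison, the 2 genes of each role with the smallest p; Plk3, Gadd45a, Ei24, Dcxr and the rest are given by means, ranges or counts. A further marker gene was left out of its list and is not reported here.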

Additional observations from a re-analysis of the deposited data

How the results depend on the processing

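The 5 untreated genotype calls became 11 with edgeR, 11 with DESeq2, 12 with the GC trend removed, 9 with the GC trend removed and a replicate block, and 12 with all 12 libraries; leaving out 1 library gave 0 to 15. The 20 irradiated genotype calls became 13 without the filter, 13 with edgeR and 12 with all 12 libraries. The interaction, with 0 calls, had 1 with DESeq2 and 0 to 5 with 1 library left out. The 33 and 30 irradiation calls stayed within 1.5 times under every alternative run, and no value changed sign while called. The cause of these shifts was not tested. Between groups, same-number correlations of the libraries' deviations from their group means ran from -0.193 to 0.196. Libraries of unlike number were not compared in this way, so whether replicate numbers pair the libraries was not settled. The replicate block gave 4, 21, 32, 30 and 0 calls in the untreated and irradiated genotype comparisons, irradiation in VC and in Bub1KO, and the interaction. Over all genes, 591 untreated calls ranged from 172 to 2736 with 1 library left out and were 329 without the filter, 1744 with edgeR, 1853 with DESeq2, 312 with the block, 1631 without the GC trend and 1769 with 12 libraries. The 4512 irradiated calls were 2062, 2439, 2545 and 2105 without the filter, with edgeR, with DESeq2 and with 12 libraries, and the 81 interaction calls were 273 with DESeq2, 47 with the block, 356 without the GC trend, 231 with both, and 33 to 1447 with 1 library left out. Depth limits Perp, Gdf15, untreated Epha2 and Trp53i13.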
